A study of Mus musculus with 48 samples.

Results

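Cytosolic ribosomal protein genes encode the proteins of the small (40S) and large (60S) subunits of the ribosome that translates messenger RNA outside mitochondria. They were taken here by name: gene models called RPL or RPS with a number, together with RPLP0, RPLP1, RPLP2 and RPSA, leaving out the RPS6K kinases. The pattern matched 89 of the 21025 gene models, and keeping the row of highest mean for each symbol left 83 members, namely 43 of the large subunit, 31 of the small subunit, 3 of the P stalk and 6 paralogs. The 6 rows set aside are other models that the files list under the same symbols.

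The 30 mouse C57BL/6 RNA libraries profile early B-cell stages with and without Ikaros, a DNA-binding zinc-finger protein that is the product of Ikzf1. Total pro-B cells, called pro-B below, came from controls, Ikzf1(fl/+) Cd79a(Cre/+), and from deleted mice, Ikzf1(fl/-) Cd79a(Cre/+), 2 libraries each. All of these, controls included, carry Cre in the Cd79a locus, a gene expressed in B-lineage cells, and a floxed Ikzf1 allele. The same 2 genotypes were profiled in pro-B cells labelled c-Kit high, 2 libraries each, and with Rag2(-/-) added, again 2 each. Pre-B cells (total) were wild type, 2 libraries. Pre-pro-B cells were Ebf1(-/-) and carried an empty vector, the control hairpin Ren713, or the Ikaros hairpins Ik4056 or Ik2709, 4 libraries each. Nothing in the labels ties replicate libraries to different mice or cultures, and the p-values therefore measure only the spread between libraries, which may be technical.

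A ribosome holds 1 copy of most of these proteins, and cells are known to make them in balanced amounts. Their messenger RNAs typically begin with a 5′ terminal oligopyrimidine tract, a run of C and T through which translation responds to mTOR signalling, and their transcription is commonly raised in growing cells, for example by Myc. Growing lymphoid progenitors are rich in them, and mutations of several, RPS19 among them, cause anaemias in people.

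The sequence around the annotated start of the message is shown first for 11 members named below, because the tract is a sequence feature that choosing genes by name did not use. The first 8 were picked for having a run of at least 8 C or T bases near the start, and the last 3, Rpl10, Rpsa and Rplp0, for having none that long. Each line gives 15 bases before and 15 bases from the annotated start, 5′ to 3′ on the gene's strand, with the longest run of C and T in capitals (RefSeq, GRCm38.p6). In Rps15a the capitals lie wholly before the annotated start and so outside the annotated message, and in Rps12 they begin several bases after it. The positions are chr14:18270972-18271001 (Rpl15, minus strand), chr2:39005117-39005146 (Rpl35, minus), chr7:45128731-45128760 (Rpl13a, minus), chr7:118116133-118116162 (Rps15a, minus), chr7:141447636-141447665 (Rplp2, plus), chr7:45718056-45718085 (Rpl18, plus), chr10:23787195-23787224 (Rps12, minus), chr3:28805493-28805522 (Rpl22l1, plus), chrX:74270801-74270830 (Rpl10, plus), chr9:120127751-120127780 (Rpsa, plus) and chr5:115559452-115559481 (Rplp0, plus).
Rpl15: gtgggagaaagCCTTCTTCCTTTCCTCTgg
Rpl35: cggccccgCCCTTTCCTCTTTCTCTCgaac
Rpl13a: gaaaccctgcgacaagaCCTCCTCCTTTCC
Rps15a: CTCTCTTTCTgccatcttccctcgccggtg
Rplp2: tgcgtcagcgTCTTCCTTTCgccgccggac
Rpl18: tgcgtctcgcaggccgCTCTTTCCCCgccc
Rps12: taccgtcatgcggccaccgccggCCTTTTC
Rpl22l1: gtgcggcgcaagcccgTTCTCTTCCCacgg
Rpl10: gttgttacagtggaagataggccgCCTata
Rpsa: gtgggttatttaaggacgtcaTTTCCggcc
Rplp0: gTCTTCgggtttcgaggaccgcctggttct

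Of the 83 members, 62 matched a RefSeq promoter by symbol, with 74 promoters in all. A run of at least 8 C or T bases lay between 25 bases before and 25 after the start in 45.9% of the member promoters, against 19.7% of all 32851 promoters of the same length. Such a run can lie wholly before the start, so it is not always a 5′ terminal tract of the message. Within 300 bases around the start, on either strand, CCGGAAG, a core of the kind ETS factors bind, was in 36.5% of member promoters and 8.86% of all. CTTTCC, whose forward matches can lie within a C and T tract, was in 48.6% and 26.6%. TGGGAA, the core of the Ikaros motif, was in 21.6% and 25.6%. These are letter matches and no evidence of binding.

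RPKM, reads scaled to gene model length and library depth, is a relative scale, and in bulk RNA fewer cells of a type and less RNA per cell cannot be told apart. Whole-number steps of microRNA models gave an implied depth, in units of 1e+06 reads, of 17.3 to 36.9 in the knock-down libraries and 2.36 to 34.5 in the pro-B libraries. It could not be read in 5 of the 30 libraries. The Rag2-null libraries were deepest among pro-B cells, at 27.4 to 34.5, against 10.4 to 12.7 in Rag2-sufficient pro-B libraries not labelled c-Kit high. It was 2.36 in c-Kit-high control replicate 2 and 9.56 in deleted replicate 1. The part of depth in the numbers of calls was not tested. Ikzf1 itself was at 56.4 and 59.2 RPKM in the pro-B controls and 45.3 and 48.9 after deletion, at 101 to 124 and 64.5 to 86.0 RPKM in the c-Kit-high groups, and at 56.2 to 62.3 and 36.7 to 39.9 RPKM in the Rag2-null groups. It was at 106 to 145 RPKM with the control constructs and 23.7 to 60.6 RPKM with the Ikaros hairpins. The files hold 1 value per gene model and none by exon. Summed over 17 B-lineage markers, pro-B and pre-B libraries held 3170 to 7990 RPKM and the Ebf1-null pre-pro-B libraries 209 to 367 RPKM.

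Levels of the members were very uneven in these files. The mean over 30 libraries was 73.3 RPKM for the median member, against 1.29 RPKM for the median gene model, but 14 members exceeded 1000 RPKM and 16 stayed under 10 RPKM. Rplp1, an acidic protein of the stalk that recruits elongation factors, had the highest mean, 6710 RPKM, followed by Rpl8, near the peptidyl transferase centre, at 4790 RPKM and Rps26, at the mRNA exit channel, at 4530 RPKM. Rps6, the small-subunit protein phosphorylated by S6 kinase, was listed at only 4.39 to 12.5 RPKM, and Rpl24 at 0 to 8.04 RPKM. The lowest means were those of Rpl26, listed at 0 in every pro-B and pre-B library and at most at 0.286 RPKM elsewhere, of Rpl39l at 0.232 RPKM and of Rpl3l at 1.70 RPKM. Genes of this family have many processed pseudogenes of near-identical sequence, and the sources used here do not give how reads with several matches were counted. Levels of single members, and the order between members, are therefore uncertain, and their part in the results was not tested.

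The members that could be tested were those with at least 1 RPKM in at least 2 libraries of a fit. In the 14 pro-B and pre-B libraries 81 members passed, all but Rpl26 and Rpl39l. In the 16 knock-down libraries 80 passed, without Rps4l as well. Differences below are on the log2(RPKM + 1) scale, which understates changes of low members, and a call is an adjusted p under 0.05 in limma with Benjamini-Hochberg adjustment over all models tested.

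In several members 8 libraries stood apart: the 4 Rag2-null libraries and 1 library of each knock-down construct, those in the third of 4 runs of consecutive library numbers. Rps7, a small-subunit protein, was at 333 to 708 RPKM in these 8 libraries and at 18.3 to 45.7 RPKM in the other 22. Rps13 was at 17.2 to 33.9 RPKM against 0.147 to 7.17 RPKM, and Rps23, at the decoding centre, at 21.7 to 39.4 RPKM against 0.922 to 7.12 RPKM. In all, 14 of the 81 members with a mean of at least 1 RPKM were higher in each of the 8 libraries than in any of the 22 (17.3%), against 0.578% of the 10731 other models at that level. These members, chosen for this pattern after their values were seen, are Rpl5, Rpl24, Rpl29, Rpl35, Rpl36a, Rpl38, Rps3a1, Rps7, Rps13, Rps19, Rps20, Rps23, Rps27a and Rps29. Fau, no member by name, followed them at 37.4 to 73.2 RPKM against 5.47 to 32.9 RPKM. So did Rpl32l, a row listed under the symbol of Rpl32 and set aside for its lower mean, at 1050 to 1943 RPKM against 14.4 to 65.4 RPKM. The Rag2-null deletion is a comparison inside this set, but the comparison of Rag2-null with Rag2-sufficient cells cannot be told apart from it. The fourth run had its own mark: Rpl10a, of the large subunit, was at 36.3 to 46.4 RPKM in its 4 libraries and at 5.82 to 15.7 RPKM in the other 12.

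**Figure D1:**
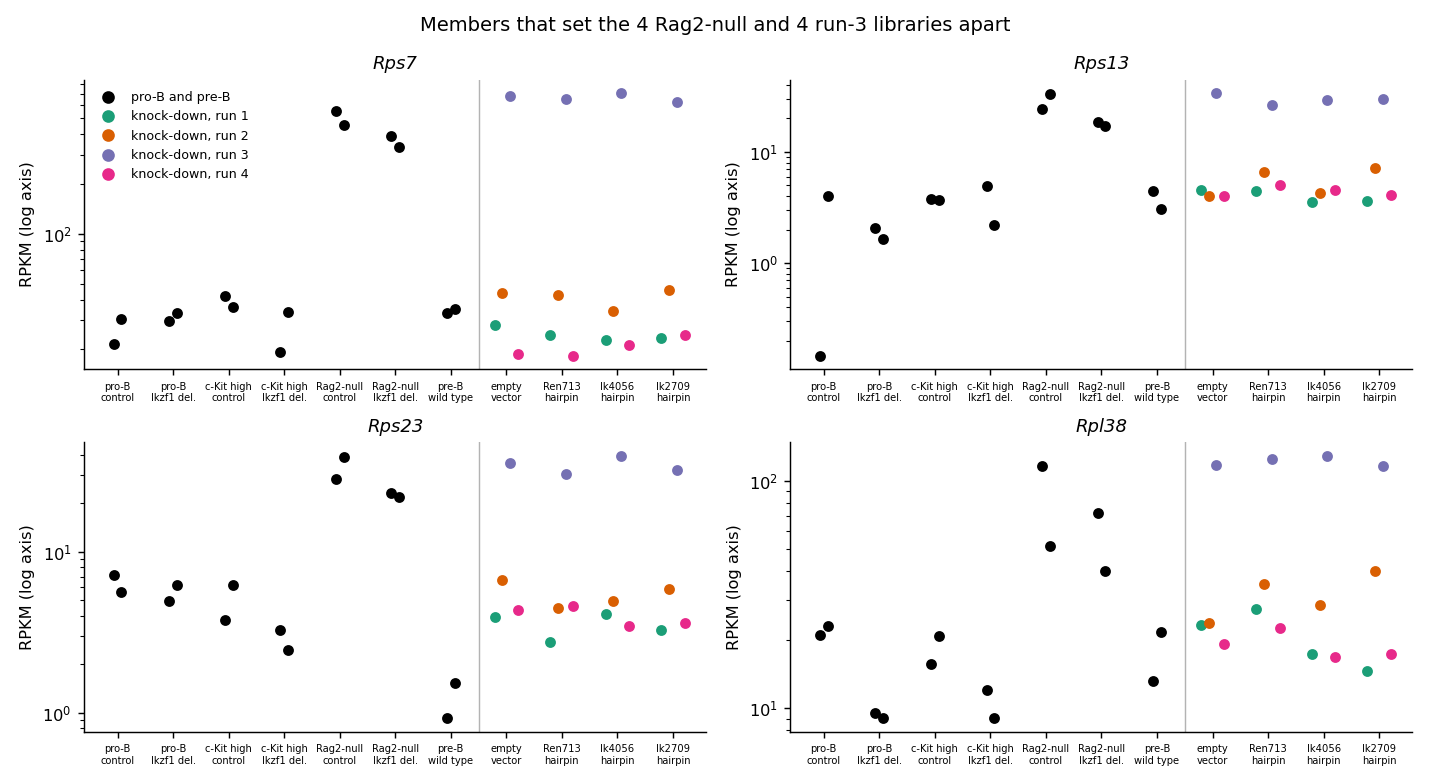
RPKM (log axis) of Rps7, Rps13, Rps23 and Rpl38 in each library, 1 point a library; knock-down libraries are coloured by their run of library numbers. The 4 Rag2-null and the 4 run-3 libraries are above all 22 others in every panel, for Rps7 at 333 to 708 RPKM against 18.3 to 45.7 RPKM.

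The share of all RPKM that fell on the 83 members was lowest in pre-B cells and highest in Rag2-null and pre-pro-B cells. In the pre-B libraries 10 granulocyte markers summed to 7640 to 7910 RPKM, and the Rag2-null libraries are among the 8 that stood apart. The part of either in this order was not tested. The share was 7.76% and 7.79% in pro-B controls and 7.68% and 7.73% after Ikzf1 deletion. For the c-Kit-high groups the shares were 5.18% and 5.91% in controls and 6.17% and 5.16% after deletion. The deleted libraries lay just under the controls in pro-B cells and on both sides of them in c-Kit-high cells. The c-Kit-high control at 5.18% and the deleted library at 5.16% have consecutive library numbers, and the numbers of the other c-Kit-high libraries lie apart. What consecutive numbers share is not in the labels, and their part in the shares was not tested.

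In Rag2-null cells the share was 12.7% and 11.7% in controls and 9.40% and 8.87% after deletion, so the groups did not overlap and the ratio of means was 0.749. Wild-type pre-B cells had the smallest shares, 3.97% and 4.42%. In the knock-down libraries the share ranged from 8.64% to 15.2% and varied with the run, with 12.8% to 15.2% in run 2 and 8.64% to 9.56% in run 4, while the means of the 4 constructs were 11.4% to 12.0%.

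**Figure D2:**
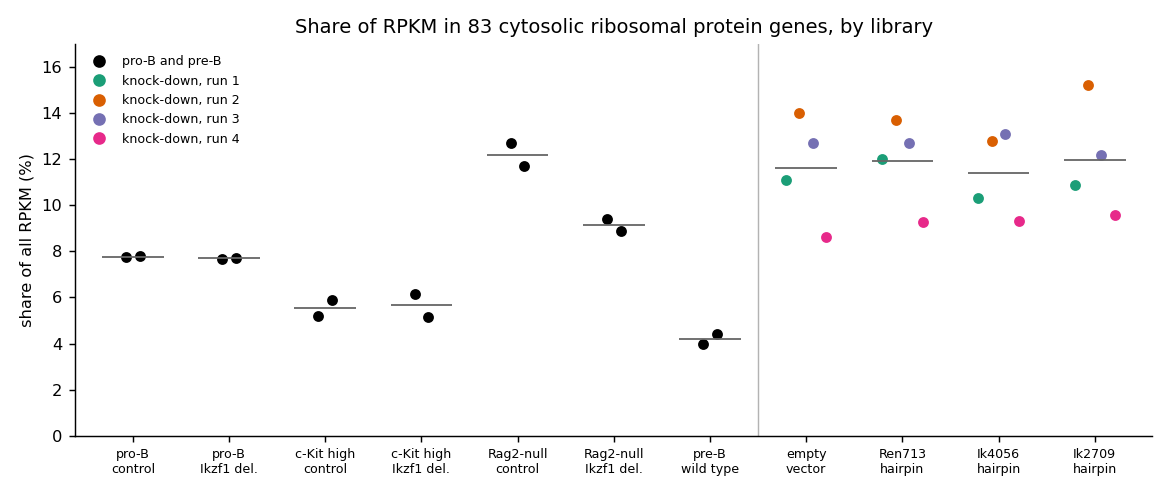
Share of all RPKM, in percent, that the 83 members took in each library, with the mean of each group as a line. The 2 Rag2-null deleted libraries (9.40% and 8.87%) are below the 2 controls (12.7% and 11.7%), and in each knock-down construct the run-4 library is the lowest.

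In Rag2-null pro-B cells the ribosomal protein genes were lower together after Ikzf1 deletion. Of 81 members tested, 32 were called lower and 0 higher, which is 39.5% against a background of 22.3% of 11937 models called either way and 6.84% called lower. All 81 had a difference below 0, with a median of -0.55 against 0.06 over all models and a range from -1.06 (Rps4l) to -0.07 (Rpl7l1). In the knock-down libraries the same constructs gave a summed share of 12.8% to 15.2% in run 2 and 8.64% to 9.56% in run 4. The sum of the members can thus shift between libraries of the same construct. Counts of members called or below 0, here and below, are therefore not counts of independent observations. Whether the shift in Rag2-null cells is of that kind was not tested. The calls fell on 15 of 31 small-subunit members, 12 of 42 large-subunit members, all 3 stalk members and 2 of 5 paralogs. By level, 22 of 27 members with a mean over 200 RPKM were called (median -0.58), 8 of 29 of 20 to 200 RPKM (median -0.51) and 2 of 25 under 20 RPKM (median -0.45).

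Among small-subunit members, Rps15a was at 35.0 and 25.3 RPKM in the Rag2-null controls and 14.8 and 16.8 RPKM after deletion. Rpsa, the laminin receptor protein at the back of the subunit, was at 59.8 and 52.9 RPKM and then 35.8 and 34.5 RPKM. Both deleted libraries were below both controls for both genes. That held for 74 of 81 members and for 23.6% of all models, while in 38% of all models both deleted libraries were above both controls. With 2 libraries in each group such separation is common and adds little for a single gene. The differences were -0.88 (SE 0.22, limma adjusted p = 0.0133) for Rps15a and -0.66 (SE 0.15, adjusted p = 0.00707) for Rpsa. The call of Rps15a was lost without control replicate 1 (adjusted p = 0.0904) or deleted replicate 1 (0.0894), and that of Rpsa held in all 4 fits that left out 1 library.

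Large-subunit members fell too. Rpl13a, whose protein can leave the ribosome and restrain translation in inflammation, was at 1588 and 1352 RPKM in controls and 994 and 849 RPKM after deletion (-0.67, SE 0.15, limma adjusted p = 0.00684). Rpl3, which helps shape the catalytic centre, was at 152 and 140 RPKM and then 94.0 and 96.8 RPKM (-0.61, SE 0.11, adjusted p = 0.0019). Rpl18 was at 597 and 576 RPKM and then 407 and 409 RPKM (-0.52, SE 0.10, adjusted p = 0.003). In none of the 3 did the groups overlap. Rpl3 and Rpl18 were chosen after their values were seen, for low adjusted p. Without deleted replicate 2 the adjusted p of Rpl13a was 0.0696, while Rpl3 and Rpl18 stayed called in all 4 fits that left out 1 library. Rpl8 was at 6197 and 6177 RPKM and then 4258 and 3854 RPKM (-0.61, adjusted p = 0.00422), a difference that was 0 under quantile normalization.

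The stalk proteins, which bring elongation factors to the ribosome, all fell. Rplp0, the scaffold of the stalk, was at 2490 and 2492 RPKM in controls and 1847 and 1563 RPKM after deletion. Rplp1 was at 6422 and 6215 RPKM and then 4662 and 3871 RPKM, and Rplp2 at 3010 and 2648 RPKM and then 2016 and 1732 RPKM. The differences were -0.55, -0.57 and -0.60 (SE 0.12 to 0.13, limma adjusted p = 0.00517, 0.00685 and 0.00505). Under quantile normalization the difference of Rplp1 was 0.13, in the other direction. Without deleted replicate 2 none of the 3 was called (adjusted p = 0.065, 0.0801 and 0.059).

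At the ends of the range, Rps4l was at 5.66 and 3.72 RPKM in controls and 2.39 and 1.13 RPKM after deletion (-1.06, SE 0.35, limma adjusted p = 0.0485). Its call was lost without control replicate 1 (adjusted p = 0.207), control replicate 2 (0.0611) or deleted replicate 2 (0.302). RefSeq lists Rps4l, a relative of Rps4x, as a transcribed pseudogene. Rps24 had a difference of -0.89 (adjusted p = 0.0771) with values of 248 and 185 RPKM against 86.1 and 154 RPKM. Nearest to 0 were Rpl7l1, a ribosome-assembly relative of Rpl7, at 47.3 and 55.1 RPKM against 44.6 and 52.7 RPKM (-0.07, adjusted p = 0.804), Rpl17 (-0.21, adjusted p = 0.611) and Rpl5 (-0.21, adjusted p = 0.833). Controls and deleted libraries overlapped for Rpl7l1 and Rpl17 and did not for Rpl5, a component of the 5S particle that can bind Mdm2.

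The number of calls moved with the processing. It was 8 under quantile normalization, where 79 of 81 members were still below 0, 24 with each library scaled to the sum of its other genes, 45 with median-ratio scaling, 14 with no filter and 3 in 1 fit of all 30 libraries. Leaving out 1 library gave 12 (deleted replicate 2), 15 (control replicate 1), 20 (deleted replicate 1) or 22 (control replicate 2). The median member difference stayed between -0.69 and -0.38 under these scalings, beside -0.07 to 0.13 for all models.

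Outside the 14 members that set the 8 libraries apart the difference was of the same size, with a median of -0.55 over the other 67 members (30 called) and -0.53 over the 14 (2 called). Members with a tract of at least 8 C or T bases had the same median, -0.55, as matched members without one, and 12 of 32 and 11 of 28 were called. Other RNA moved with the deletion as well: the summed level of 9 monocyte and macrophage markers was 13.4 to 35.0 RPKM in controls and 68.8 to 74.2 RPKM in deleted libraries, with 2 and 1 of the 9 under 0.1 RPKM. That of 7 plasma cell markers was 1320 to 1520 RPKM and 484 to 859 RPKM, but of the 6 tested Mzb1 (-1.25) and Xbp1 (-1.06) were called lower and Derl3 (1.32) and Prdm1 (0.86) higher. The sums of 17 B-lineage markers overlapped, at 5630 to 7690 RPKM and 6020 to 6870 RPKM. The sum of 11 T-lineage markers was 75.9 to 134 RPKM and 17.5 to 26.4 RPKM, with Cd3e, Cd3d and Cd3g under 0.1 RPKM in both groups. Their part in the result was not tested.

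Genes that work with these proteins were read from lists. Of 15 translation factors 6 were called lower and 0 higher in Rag2-null cells, with a median of -0.44. Eef1b2, a subunit of the exchange factor of elongation factor 1, changed by -0.56 (limma adjusted p = 0.0183) and Eef1a1, which carries aminoacyl-tRNA, by -0.53 (adjusted p = 0.0372). Rack1, a scaffold on the small subunit, was at 4130 and 4040 RPKM in controls and 2720 and 2500 RPKM after deletion (-0.65, adjusted p = 0.00516). Fau, which encodes Rps30 fused to a ubiquitin-like protein, was at 52.9 and 53.7 RPKM and then 37.4 and 38.4 RPKM (-0.48, adjusted p = 0.149). Of 30 ribosome biogenesis genes 0 were called in limma (2 at an unadjusted p under 0.05), with a median of -0.14 and 24 below 0. Of 12 regulators, Myc (0.58, adjusted p = 0.0291) and Mxd4, a Myc antagonist (1.60, adjusted p = 0.0321), were called higher. Of 75 mitochondrial ribosomal protein genes, a list added after the values were seen, 12 were called lower and 0 higher, with a median of -0.30.

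**Figure D3:**
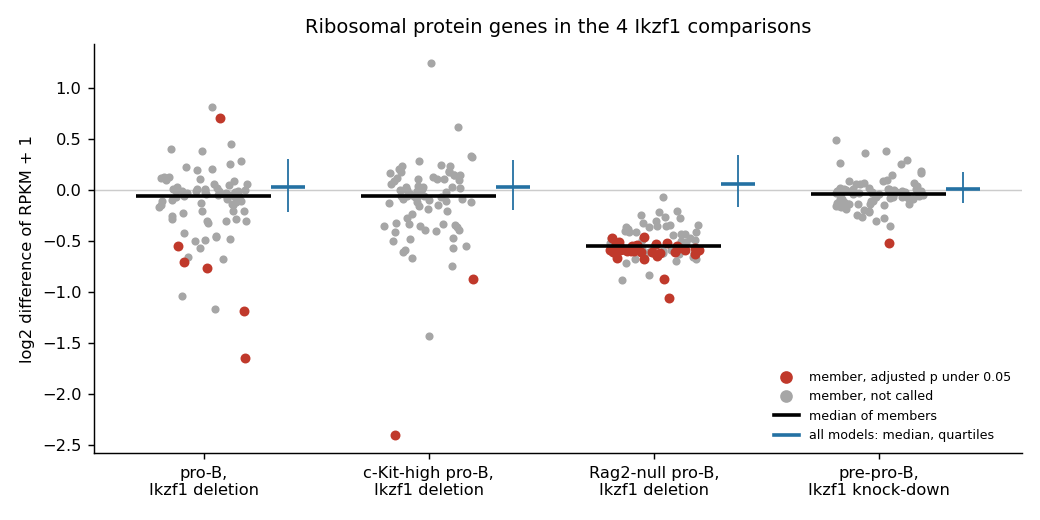
Difference in log2(RPKM + 1) of each member tested in the 4 Ikzf1 comparisons; red points passed an adjusted p of 0.05, black lines are member medians, and blue marks give the median and quartiles of all models tested. In Rag2-null cells all 81 points are below 0 around a median of -0.55, while the other medians are -0.06, -0.06 and -0.04.

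In Rag2-sufficient pro-B cells Ikzf1 deletion changed few members, and these mostly had low listed levels. Of 81 members, 5 were called lower and 1 higher (7.41%) against 23.4% of all models called either way, 13.5% higher and 9.89% lower. The median difference was -0.06, beside 0.03 over all models. The stalk proteins, called in Rag2-null cells, were not called here: Rplp0 was at 1367 and 1340 RPKM in controls and 1366 and 1338 RPKM after deletion, and the 3 differences ran from -0.026 to -0.002.

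Rps29, a small zinc-binding protein of the 40S head, was at 5.72 and 5.47 RPKM in pro-B controls and 2.06 and 0.451 RPKM after deletion (-1.65, SE 0.27, limma adjusted p = 0.000815). Rpl10, the late-joining protein needed for subunit joining, was at 9.50 and 7.81 RPKM and then 3.03 and 3.43 RPKM (-1.19, SE 0.34, adjusted p = 0.0259). Rps12 went the other way, from 7.28 and 9.91 RPKM to 12.5 and 16.6 RPKM (0.70, SE 0.22, adjusted p = 0.0329). The groups did not overlap for any of these 3 members. In this deletion 26 of 81 members were lower and 9 higher without overlap, beside 29% and 35.9% of all models. The call of Rps29 held in all 4 fits that left out 1 library and that of Rpl10 in 0 of 4 (adjusted p = 0.0737 to 0.149). That of Rps12 was lost without control replicate 1 (0.251) or deleted replicate 2 (0.226).

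Rpl19, a large-subunit protein at a bridge between subunits, was at 10.3 and 7.23 RPKM in pro-B controls and 5.28 and 4.16 RPKM after deletion (-0.76, limma adjusted p = 0.024). Rpl35, near the exit tunnel, was at 6.64 and 6.00 RPKM and then 4.43 and 2.72 RPKM (-0.70, adjusted p = 0.0437). Rps27l, a p53-responsive paralog of Rps27, was the best expressed of the 6, at 145 and 140 RPKM and then 87.4 and 108 RPKM (-0.54, adjusted p = 0.0383). It was also the only one of the 6 with a mean of at least 20 RPKM. Of the 4 fits that left out 1 library, Rpl19 was called in 2 and Rpl35 and Rps27l in 1 each. Without control replicate 1 the adjusted p was 0.22, 0.197 and 0.164 for the 3 genes, and 1 member in all was called. Without deleted replicate 2 it was 0.155 for Rpl19 and 0.308 for Rpl35. Without control replicate 2 it was 0.115 for Rpl35 and 0.125 for Rps27l, and without deleted replicate 1 it was 0.247 for Rps27l. The balance of directions moved with the settings: 1 lower and 0 higher with no filter, 9 lower and 0 higher with median-ratio scaling, 1 lower and 2 higher in 1 fit of all 30 libraries, and 2 lower and 3 higher without control replicate 2.

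Of the ribosome biogenesis genes 29 of 30 had a difference below 0 in pro-B cells, with a median of -0.19, and limma called 0 (3 at an unadjusted p under 0.05). The 7 plasma cell markers summed to 658 to 714 RPKM in controls and 262 to 268 RPKM after deletion, with Mzb1 (-2.42) and Xbp1 (-0.94) called lower and Irf4 (1.77) higher among 6 tested. The 17 B-lineage markers summed to 3910 to 3920 RPKM and 3170 to 3490 RPKM, 8 called lower and 4 higher. Their part in the results was not tested.

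In c-Kit-high pro-B cells 2 of 81 members were called lower and 0 higher (2.47%), against 17.2% of all models and 5.60% called lower, with a median of -0.06. Rpl3l, the striated-muscle paralog of Rpl3, was at 9.91 and 13.2 RPKM in controls and 1.33 and 1.39 RPKM after deletion (-2.40, SE 0.23, limma adjusted p = 1.86e-05). Its partner Rpl3 was at 69.2 and 66.6 RPKM and then 77.7 and 62.4 RPKM, overlapping (0.04, adjusted p = 0.864). Rpl35 was at 6.50 and 4.74 RPKM and then 1.87 and 3.50 RPKM (-0.87, SE 0.23, adjusted p = 0.0204), a call lost without control replicate 1 (0.113) or deleted replicate 1 (0.192).

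Rps25 and Rps27 were farthest from the member median without a call. Rps25 was at 16.8 and 30.1 RPKM in controls and 4.18 and 13.7 RPKM after deletion, with no overlap (-1.43, limma adjusted p = 0.0563). Here 17 members were lower and 4 higher without overlap, beside 23% and 30.6% of all models. Rps27 was at 4.41 and 0 RPKM and then 5.26 and 3.87 RPKM, with overlap (1.25, adjusted p = 0.315). Of 30 ribosome biogenesis genes 4 were called lower, among them Fbl, the rRNA methyltransferase fibrillarin (-0.67, adjusted p = 0.0264), and Brix1 (-0.65, adjusted p = 0.0471), with a median of -0.17. Control replicate 1 and deleted replicate 2 of the c-Kit-high groups, whose library numbers are consecutive, held more granulocyte RNA. In sum 10 granulocyte markers were at 107 to 688 RPKM in controls and 126 to 335 RPKM in deleted libraries. For 9 monocyte and macrophage markers the sums were 66.8 to 103 RPKM and 145 to 155 RPKM. The part of that RNA in the results was not tested. Without those 2 libraries, an alternative added after the values were seen, 8 members were called, 2 of them higher. Leaving out control replicate 1 alone gave 7 calls, control replicate 2 alone 3, deleted replicate 2 alone 8, and deleted replicate 1 alone 1, and the call of Rpl3l held in each of the 4 fits that left out 1 library.

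In limma 0 of 81 members were called in the same direction in all 3 deletions, against 1.47% of all models called lower and 3.85% called higher in all 3. A difference below 0 in all 3 was found for 32 members (39.5%), against 18.4% of all models. One above 0 in all 3 was found for 0 members, against 26.9%, but no member could have it, as all 81 were below 0 in Rag2-null cells. In pro-B and c-Kit-high cells 56 and 47 of the 81 were below 0, so the count of 32 is no evidence of agreement between the deletions. The deletions were next compared directly. The difference between the effects in Rag2-null and Rag2-sufficient cells was called for 12 members, 11 lower and 1 higher (14.8%), close to the 13.1% of all models called either way. By direction, 13.6% of members were called lower, against 4.55% of all models, and 1.23% higher, against 8.54%. Its median was -0.50 over members and 0.03 over all models, and 68 of 81 members were farther down in Rag2-null cells. Leaving out pro-B control replicate 1 left 0 calls, pro-B deleted replicate 2, Rag2-null control replicate 1 or Rag2-null deleted replicate 2 left 1, and the other pro-B control, pro-B deleted and Rag2-null deleted libraries 3, 5 and 6. Without Rag2-null control replicate 2 there were 11, and under quantile normalization 3 lower and 1 higher.

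Rps12 differed in opposite directions. It rose in pro-B cells, as above, and was at 18.8 and 20.6 RPKM in Rag2-null controls and 12.6 and 11.8 RPKM after deletion (-0.65, limma adjusted p = 0.0487), a call lost in each of the 4 fits that left out 1 library (0.084 to 0.195). The difference of effects was -1.35 (SE 0.30, adjusted p = 0.0113). Rps4l differed by -1.87 (SE 0.49, adjusted p = 0.0275), and Rps29 by 1.29 (SE 0.39, adjusted p = 0.045), being farther below 0 in pro-B cells. Rps29 is among the 14 members that set the 8 libraries apart. It was at 36.4 to 62.5 RPKM in those 8, the Rag2-null libraries included, and at 0.451 to 8.38 RPKM in the other 22. Its effects were thus compared at unlike levels, and the part of level or library set was not tested. Rpl22, which binds RNA outside the ribosome and is needed in lymphocyte development, differed by -0.81 (SE 0.23, adjusted p = 0.0377). Of the 8 fits that left out 1 library, the call held in 6 for Rps12, 4 for Rps4l, 2 for Rps29 and 1 for Rpl22. Without pro-B control replicate 1 none of the 4 was called (adjusted p = 0.0573, 0.1, 0.124 and 0.0677).

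Between c-Kit-high and total pro-B cells 3 members differed in their response (3.70%), against 6.70% of all models, 4.54% higher and 2.16% lower. They were Rpl3l (-2.46, limma adjusted p = 0.00145), Rps12 (-1.11, adjusted p = 0.0494) and Rps29 (1.98, adjusted p = 0.0101). Both comparisons of effects use the same pro-B libraries. None of the 3 had a mean of at least 20 RPKM. The calls of Rpl3l and Rps29 held in all 8 fits that left out 1 library, and that of Rps12 in 2 of 8, with an adjusted p of 0.186 without pro-B control replicate 1.

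**Figure D4:**
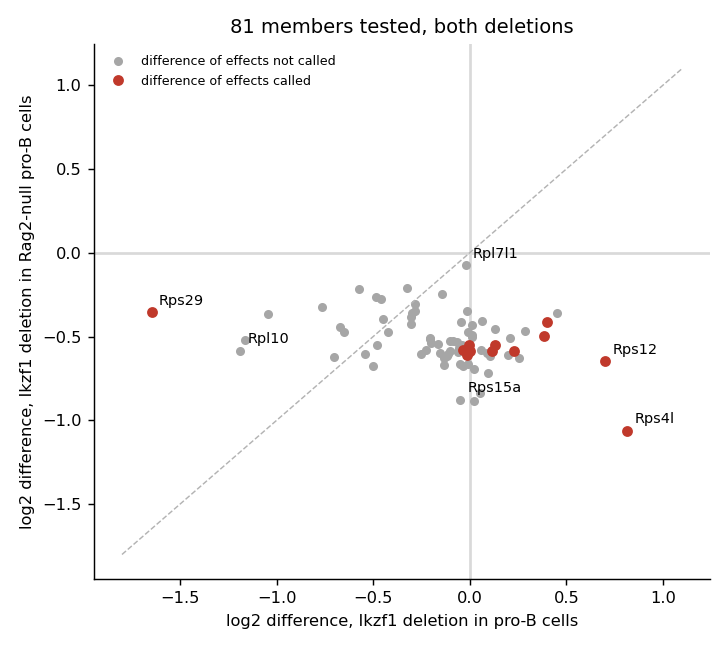
Difference in log2(RPKM + 1) after Ikzf1 deletion in pro-B cells (x axis) and in Rag2-null pro-B cells (y axis) for the 81 members tested; red points are the 12 members whose effects differed at an adjusted p of 0.05, and the dashed line marks equal effects. All points are below 0 on the y axis, 68 are below the dashed line, and Rps12 and Rps4l are at the right.

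Knock-down of Ikzf1 in Ebf1-null pre-pro-B cells changed few members. Both Ikaros hairpins together against both controls gave 1 call lower and 0 higher among 80 members (1.25%), against 19.4% of 10744 models and 6.04% called lower, with a median of -0.04 beside 0.01 over all models. Ren713 against the empty vector gave no call in limma, 0 at an unadjusted p under 0.05, beside 0 of all models. With the run as a block it again gave 0 members (4 at an unadjusted p under 0.05), beside 0.0838% of all models, 0.00931% higher and 0.0745% lower. For knock-down against control, with the run as a replicate block, 11 members were called, 9 lower and 2 higher (13.8%), against 51.9% of all models, 28.8% higher and 23.1% lower.

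The call was Rpl15, a core protein of the large subunit. With Ik4056 it was at 4.32, 5.58, 9.78 and 4.50 RPKM, and with Ik2709 at 11.4, 14.6, 12.5 and 9.29 RPKM. The empty vector gave 13.6, 13.4, 12.9 and 12.5 RPKM and Ren713 gave 12.7, 11.7, 12.0 and 10.2 RPKM. Ik4056 was therefore below both controls in every library and overlapped Ik2709 by 1 library, that of run 3. Ik2709, at 9.29 to 14.6 RPKM, overlapped both controls, so the call of both hairpins together rested mainly on Ik4056. The combined difference was -0.52 (SE 0.13, limma adjusted p = 0.0101, and -0.64 with adjusted p = 0.00278 without run 3).

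The hairpins differed from each other in Rpl15 by -0.93 (SE 0.19, limma adjusted p = 0.00934), the 1 member called among 80 (1.25%) against 3.33% of all models, 2.62% higher and 0.707% lower. With the replicate block 6 members were called lower with Ik4056 than with Ik2709 (7.5%), against 22.4% of all models and 7.33% called lower. They were Rpl15 (adjusted p = 0.000348), Rpl9 (-0.45, adjusted p = 0.000633), Rpl41 (-0.28), Rpl7l1 (-0.25), Rpl3 (-0.22) and Rpl6 (-0.20). The share of members called lower was near that of all models, so this count is no result about the members. In the 8 hairpin libraries alone the Rpl15 difference had an adjusted p of 0.11.

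Rpl22l1, the paralog that takes the place of Rpl22, was called higher with the block and not without it. Its controls were at 34.5, 32.3, 21.9 and 13.6 RPKM with the empty vector and 28.9, 33.0, 18.6 and 14.6 RPKM with Ren713. With Ik4056 it was at 34.3, 47.2, 38.0 and 20.7 RPKM and with Ik2709 at 37.5, 43.2, 26.5 and 26.8 RPKM. In runs 2, 3 and 4 both Ikaros hairpins were above both controls, and in run 1 they overlapped. The difference was 0.49, with a limma adjusted p of 0.156 without the block and 0.000356 with it, while Rpl22 was at -0.03 (adjusted p = 0.913 and 0.741).

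Other members called with the block and not without it had smaller differences, among them Rpl3l (-0.36, limma adjusted p = 0.00715), Rpl24 (-0.30), Rps28 (-0.27), Rpl27 (-0.27), Rpl10 (-0.25) and, higher, Rps25 (0.18, adjusted p = 0.043). The ribosome biogenesis list had a lower median than the members, -0.27, with 29 of 30 genes below 0, 2 called without and 27 with the block. Gar1, of the box H/ACA particles, was at -0.52 (adjusted p = 0.00689). Mycn, a Myc family factor, was at -0.97 (adjusted p = 0.00382). The 9 monocyte and macrophage markers summed to 12.2 to 19.7 RPKM with the control constructs and 110 to 193 RPKM with the Ikaros hairpins, and the 10 granulocyte markers to 21.7 to 90.4 RPKM and 114 to 429 RPKM, with S100a8, S100a9 and Ngp under 0.1 RPKM in all 4 groups. Their part in these results was not tested.

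**Figure D5:**
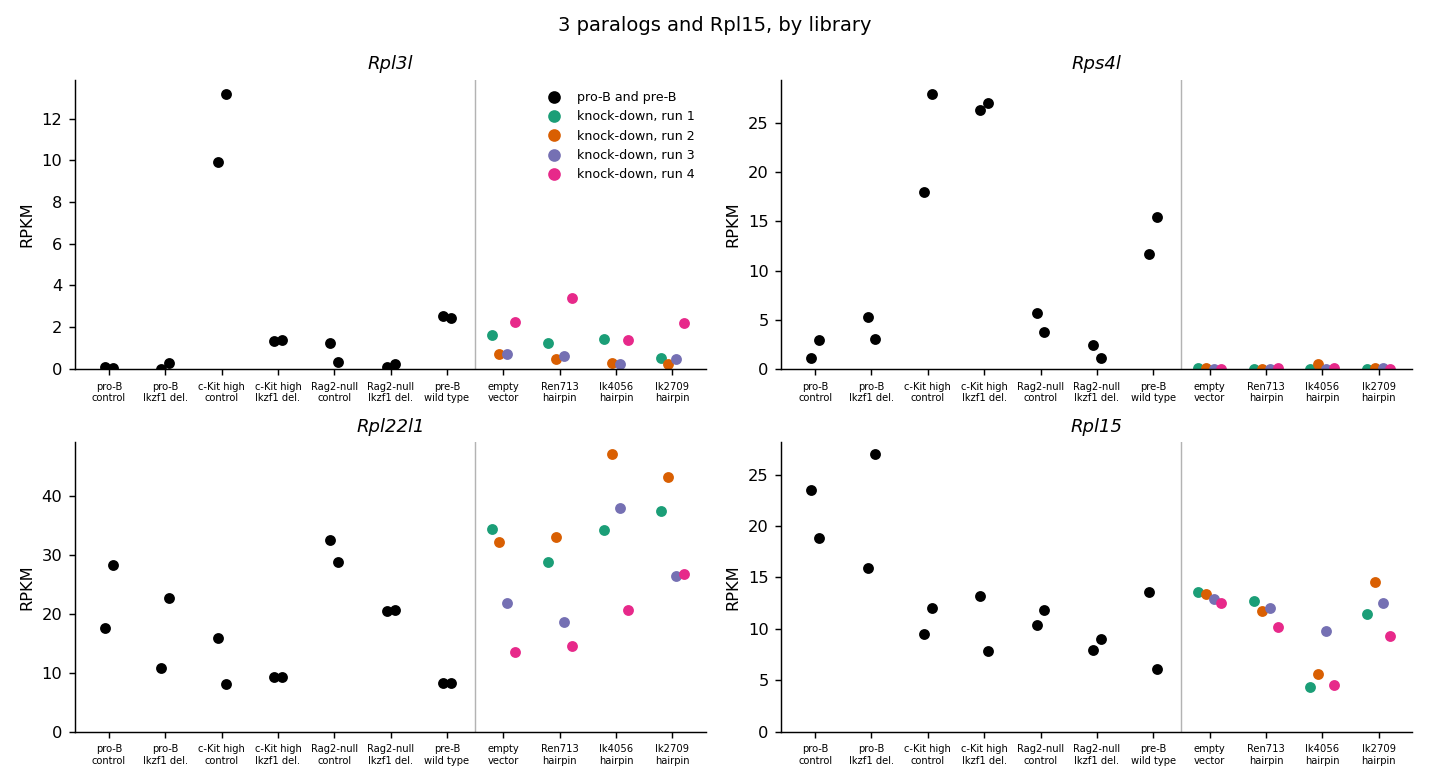
RPKM of Rpl3l, Rps4l, Rpl22l1 and Rpl15 in each library, 1 point a library, with knock-down libraries coloured by run. Rpl3l is at 9.91 and 13.2 RPKM in c-Kit-high controls and at 3.39 RPKM or less in every library outside that group, Rps4l is at 0.466 RPKM or less in all knock-down libraries, and 3 of 4 Ik4056 libraries are at 5.58 RPKM or less for Rpl15.

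Many members were lower in c-Kit-high than in total pro-B cells. In c-Kit-high against pro-B controls 40 members were lower and 3 higher (53.1%), against 50.8% of all models, 27.8% higher and 23.0% lower. The median was -0.46 beside 0.08, and 28 members were called without pro-B control replicate 1. Granulocyte markers, at most 0.625 RPKM in sum in the pro-B controls, summed to 107 to 688 RPKM in the c-Kit-high controls, and their part in the result was not tested. Rplp0 was at 1367 and 1340 RPKM in pro-B controls and 762 and 843 RPKM in c-Kit-high controls (-0.76, limma adjusted p = 0.000252), and Rpl14 at 876 and 919 RPKM and then 329 and 404 RPKM (-1.30, adjusted p = 5.69e-05). Neither gene's groups overlapped. In this comparison 53 members were lower and 5 higher without overlap, beside 34.1% and 41.7% of all models. The ribosome biogenesis genes were lower as well, 29 of 30 called, with a median of -1.21.

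The 3 members that were higher in c-Kit-high controls were Rpl3l, Rps4l and Rps7. Rpl3l was at 0.108 and 0.0609 RPKM in pro-B controls (3.52, limma adjusted p = 7.78e-07). Rps4l was at 1.10 and 2.91 RPKM in pro-B and 18.0 and 28.0 RPKM in c-Kit-high controls (3.03, adjusted p = 4.37e-05). Rps7 differed by 0.59 (adjusted p = 0.044), a call lost without pro-B control replicate 1 (0.308) or either c-Kit-high control (0.185 without replicate 1, 0.0704 without replicate 2).

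Wild-type pre-B against c-Kit-high controls gave 25 members lower and 1 higher (32.1%), against 49.0% of all models, 19.2% higher and 29.8% lower, with a median of -0.25 beside -0.11. The share of members called lower, 30.9%, was near that of all models, so it is no result about the members. Median-ratio scaling gave 14 lower and 3 higher, and 16 were called without c-Kit-high control replicate 2 or without pre-B replicate 1. Rplp2 was at 474 and 478 RPKM in pre-B cells and 871 and 1030 RPKM in c-Kit-high controls (-0.99, limma adjusted p = 3.64e-05). Rpl12, a protein at the base of the stalk, was the 1 member called higher (0.54, adjusted p = 0.0183), and not without c-Kit-high control replicate 2 (0.144) or pre-B replicate 2 (0.14). Of the 30 ribosome biogenesis genes 24 were called lower, with a median of -0.78. Ikzf1 genotype and Cre differ here as well as stage, and the 10 granulocyte markers summed to 7640 to 7910 RPKM in pre-B libraries, against 107 to 688 RPKM in c-Kit-high controls, with none of the 10 under 0.1 RPKM in either group. Their part in the result was not tested.

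Rag2-null against pro-B controls gave 46 members higher and 2 lower (59.3%), against 31.6% of all models, 10.9% higher and 20.7% lower, with a median of 0.75 beside -0.08. The largest differences were those of members that set the 8 libraries apart, such as Rps7 (4.23) and Rps13 (3.62). Rplp2, which is not among them, was at 3010 and 2648 RPKM against 841 and 785 RPKM (1.795, limma adjusted p = 7.67e-06). The lower members were Rpl10a (-1.43, adjusted p = 0.000149) and Rpl17 (-1.14, adjusted p = 0.00366). Genotype and the set of libraries cannot be told apart in this comparison.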

How the data were processed

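The authors deposited 1 table per library with an RPKM value for each gene model, strand-specific and poly(A)-selected per the labels' protocols. The submitters' processing notes name TopHat 1.4.1, HTSeq 0.5.3, DESeq 1.8.3 and mm9; the treatment of reads with several matches was not stated in them. Models were matched to current symbols by RefSeq accession (20661 of 21025). Values were transformed as log2(RPKM + 1), models under 1 RPKM in all but 1 library were dropped, and limma 3.58.1 (R 4.3.3; intensity trend, robust moderation) was fitted to 14 pro-B and pre-B libraries (7 groups, 11937 models) and 16 knock-down libraries (4 groups, 10744 models), with Benjamini-Hochberg adjustment over all models and a threshold of 0.05. The knock-down fit was repeated with the run of library numbers as a replicate block: the labels give the numbers, and same-run libraries deviated together (24 pairs, lowest r 0.52, median 0.78). Tables and figures used Python 3.11.15. The fits were tested on simulated data. No pair of libraries held identical values.

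The members and gene lists were chosen with earlier results of these data known. Named were up to 5 called members each way per comparison, the paralogs and stalk proteins, the 3 highest and 3 lowest members, untested members and up to 3 members each way farthest from the member median. Alternatives were other scalings, pseudocounts and filters, other fits and leaving out single libraries. Single values of some members are not reported here; these members stay in the counts and medians.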

Additional observations from a re-analysis of the deposited data

Results flagged for a closer look

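In each of the 4 knock-down groups the library of run 3 was far above the other 3 for 7 members, by a gap test within groups of 4 that chance passes for about 1 in 20 groups. Of 320 pairs of a member and a group, 57 passed (17.8%), 43 of them through run 3, against 7.10% of the pairs of all models tested. The 7 members that passed in all 4 groups are 8.75% of the members tested, against 0.391% of all models. Rps7 was at 674, 649, 708 and 620 RPKM in the run-3 libraries of the empty vector, Ren713, Ik4056 and Ik2709. In the same order Rpl29 was at 182, 191, 157 and 177 RPKM and Rps29 at 60.3, 62.5, 55.4 and 49.4 RPKM. Rps23 was at 35.5, 30.5, 39.4 and 31.9 RPKM, and Rps13 at 33.9, 26.6, 29.5 and 29.9 RPKM. Rpl36a was at 25.6, 25.9, 21.0 and 20.7 RPKM, and Rpl5 at 14.7, 16.3, 11.4 and 15.1 RPKM.

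The effect of Ikzf1 deletion differed between Rag2-null and Rag2-sufficient pro-B cells, by the test of the difference itself, for 12 members, of which 11 are given. The 12 are 14.8% of the members tested, near the 13.1% of all models called either way, and 0 were called without pro-B control replicate 1. By direction, 13.6% of members were called lower, against 4.55% of all models, and 1.23% higher, against 8.54%. On the log2 scale the difference, Rag2-null minus pro-B, was -1.87 for Rps4l, -1.35 for Rps12, -0.88 for Rps3a1, -0.81 for Rpl23, -0.81 for Rpl22, -0.68 for Rpl37, -0.60 for Rpl8, -0.58 for Rpl32, -0.55 for Rplp0, -0.54 for Rps19 and 1.29 for Rps29. Rps3a1, Rps19 and Rps29 are among the 14 members that set the 8 libraries apart. Between c-Kit-high and total pro-B cells the effect differed for 3 members (3.70%, against 6.70% of all models): Rpl3l (-2.46), Rps12 (-1.11) and Rps29 (1.98).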

How the results depend on the processing

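Counts of members called moved by over 1.5 times as follows, and the cause was not tested unless stated. Under quantile normalization they were 7 for the deletion in c-Kit-high cells, 8 in Rag2-null cells and 4 for the difference of effects between Rag2-null and pro-B cells. Differences of reported members that turned or reached 0 did so there: Rpl8 (0) and Rplp1 (0.128) in the Rag2-null deletion, Rpl8 (0.045) in that difference of effects, Rpl8 (0.083) in c-Kit-high against pro-B controls, and Rpl8 (-0.09), Rplp1 (-0.257) and Rps3 (0) in Rag2-null against pro-B controls. Median-ratio scaling gave 4 for the c-Kit-high deletion and 17 for pre-B against c-Kit-high cells. Scaling to the other genes gave 7 for the Rag2-null minus pro-B effect, and a pseudocount of 0.1 gave 1 for the c-Kit-high minus pro-B effect. With no filter, which tests more models, there were 1, 1 and 14 for the pro-B, c-Kit-high and Rag2-null deletions, 14 for pre-B cells, and 0 and 1 for the Rag2-null and c-Kit-high differences of effects. One fit of 30 libraries gave 3, 1 and 3 for those deletions, 9, 17 and 22 for pre-B, c-Kit-high and Rag2-null controls, and 2 for the Rag2-null difference of effects. The compared libraries alone gave 1 for the c-Kit-high deletion and 0 for Ik4056 against Ik2709.

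With the replicate block there were 11 for knock-down and 6 for Ik4056 against Ik2709, with the block and quantile normalization 15 and 7, and with the block and without run 3, added after the values were seen, 10 and 12. No call without the block was lost with it. Other alternatives added then were members of at least 20 RPKM (1, 0 and 0 for the pro-B and c-Kit-high deletions and the c-Kit-high difference of effects) and leaving out both c-Kit-high libraries of higher granulocyte RNA (8).

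Leaving out 1 library gave 1 to 5 members for the pro-B deletion, 1 to 8 for the c-Kit-high deletion, 12 to 22 for the Rag2-null deletion, 0 to 11 and 2 to 3 for the differences of effects, 16 to 29 for pre-B cells, 28 to 40 for c-Kit-high and 38 to 43 for Rag2-null controls. An arm left with 1 library is assumed to vary like the other groups. Groups of 2, and a depth that was not read in 5 libraries, limit the low members most.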
